A study of Mus musculus with 56 samples.

Results

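The collagen genes are the 44 protein-coding genes whose symbol is Col, a number, the letter a and a number. They were chosen by name from 55386 genes in 3 count tables, of which 21857 are protein-coding in the GENCODE vM21 annotation of the mouse genome build GRCm38, and each table holds all 44. By the structure the proteins build, they fall into 9 classes. These are 11 fibril-forming genes, 9 fibril-associated genes (FACIT), 6 genes of the basement membrane network, 6 of beaded filaments, 4 transmembrane genes, 3 short-chain network genes, 2 multiplexins, 1 anchoring fibril gene and 2 others.

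RNA came from barrel cortex, the cortical map of the whiskers, dissected on postnatal day 5. Right-side whiskers had been cauterised on day 4, 24 h earlier. Ribosomes carrying the protein L10a fused to EGFP were pulled down from each dissected piece (translating ribosome affinity purification), which gave bound RNA. The other library of the piece is labelled tissue or whole tissue, carries the mark UB in the microglial lines, and is called unbound RNA here. In the astrocyte line, Aldh1l1EGFP-L10a/+ (genotype label Aldh1l1::eGFPL10a), the tag follows the astrocyte gene Aldh1l1, no tamoxifen was given, and each fraction has 5 deprived and 5 control pieces. The knockout line, Cx3cr1CreErt2/CreErt2(Litt) Eef1a1LSL.eGFPL10a/+, has Cre in both copies of the fractalkine receptor gene Cx3cr1, again with 5 deprived and 5 control pieces per fraction. The heterozygous line, Cx3cr1CreErt2/+(Litt) Eef1a1LSL.eGFPL10a/+, has it in 1 copy, with 4 deprived and 4 control pieces per fraction. Both microglial lines received 50 µg of tamoxifen on each of days 1, 2 and 3, so their tag can mark any cell in which Cx3cr1 was active then, and the control pieces come from lesioned mice too. In the knockout line each mouse gave a deprived piece (L) and a control piece (R). In the heterozygous line mice 14 and 15 gave 1 piece of each kind, while 17L and 17R are both deprived pieces of mouse 17 and 21L and 21R both control pieces of mouse 21. Each heterozygous group of 4 pieces thus holds 3 mice, which p-values over pieces do not take into account. There piece 17R is labelled deprived and piece 21L control, against the side letters of the other pieces, and results that rest on them are also given by side letter. Molecules are labelled polyA RNA in the knockout table and total RNA in the other tables, so genotype, table and RNA label cannot be told apart.

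Collagens are triple helices of 3 chains that cells secrete or hold at their surface as matrix. In the brain their main store is the basement membrane of blood vessels and of the pial surface, built on a type IV collagen net made by endothelial cells, mural cells, fibroblasts and astrocytes. Fibril-forming collagens are the mark of the meninges and of fibroblasts around larger vessels, while some transmembrane and fibril-associated collagens are made by neurons.

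The genes Col4a1 and Col4a2 encode the chains of the common type IV net and lie head to head on chromosome 8 (GRCm38 11198423 to 11312826, minus strand, and 11312805 to 11449287, plus strand), with starts 21 bases apart. Their promoter windows are shown because these genes led the bound RNA of all 3 lines, and that of Col3a1, the type III fibril gene of meninges and vessel walls, because it stood among the genes that varied most between pieces. Each window runs 5′ to 3′ on the gene's strand from 250 bases before to 50 after the RefSeq start (build GRCm38.p6). Capitals mark 3 motifs on either strand: the motif CCAAT, the TATA motif TATAAA, and the GC-box core, which is GGGCGG. The windows are chr8:11312777-11313076 (minus strand), chr8:11312555-11312854 (plus strand) and chr1:45311288-45311587 (plus strand).
Col4a1: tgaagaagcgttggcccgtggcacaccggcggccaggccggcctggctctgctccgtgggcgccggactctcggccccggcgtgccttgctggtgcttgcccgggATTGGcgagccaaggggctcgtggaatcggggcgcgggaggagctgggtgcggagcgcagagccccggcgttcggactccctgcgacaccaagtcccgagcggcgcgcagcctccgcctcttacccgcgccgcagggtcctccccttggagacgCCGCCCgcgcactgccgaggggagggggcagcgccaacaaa
Col4a2: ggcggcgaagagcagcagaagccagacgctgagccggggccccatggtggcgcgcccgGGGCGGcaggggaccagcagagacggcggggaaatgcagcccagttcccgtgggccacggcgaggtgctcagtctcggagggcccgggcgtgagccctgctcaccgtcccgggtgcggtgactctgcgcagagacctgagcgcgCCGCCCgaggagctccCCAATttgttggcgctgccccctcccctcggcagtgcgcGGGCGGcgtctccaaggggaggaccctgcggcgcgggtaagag
Col3a1: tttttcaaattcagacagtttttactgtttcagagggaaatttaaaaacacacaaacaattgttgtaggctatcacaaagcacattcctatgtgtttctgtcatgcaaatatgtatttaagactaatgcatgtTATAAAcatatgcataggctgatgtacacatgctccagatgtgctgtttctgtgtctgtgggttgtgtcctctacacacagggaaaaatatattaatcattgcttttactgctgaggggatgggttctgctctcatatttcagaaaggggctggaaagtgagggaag

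The windows of Col4a1 and Col4a2 share 78 bases. CCAAT and GGGCGG occur in both, and TATAAA only in that of Col3a1 among these 3. RefSeq windows were at hand for 35 of the 44 collagen genes. GGGCGG was in 22 of them (62.9%), against 35.7% of all 32851 windows of this length, CCAAT in 12 (34.3%, against 37.4%) and TATAAA in 5 (14.3%, against 13.6%). Of the 35 RefSeq starts, 31 lay within 200 bases of the annotated start of the gene, and that of Col25a1 lay 49344 bases from it. The motifs do not overlap, and a match is a description of letters only. The other type IV pairs also lie head to head: the annotated starts of Col4a3 and Col4a4 are 72 bases apart, and those of Col4a5 and Col4a6 1309 bases apart on chromosome X.

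Depth differed between the lines and with it the precision for low genes. In the astrocyte line bound libraries held 10928457 to 28584281 counts and unbound ones 10081228 to 24306936 counts. The knockout line had 35792651 to 53872463 counts in bound and 34622580 to 56689296 counts in unbound libraries, and the heterozygous line 39937173 to 49690286 counts in bound and 32772396 to 50712376 counts in unbound ones. The targeted gene Cx3cr1 had 0.336 to 1.25 CPM (counts scaled to a common TMM library size) in bound RNA of the knockout line, against 6.52 to 12.4 CPM in the heterozygous line. Of 15 microglia markers, 15 rose in bound against unbound RNA of each microglial line, and of 14 astrocyte markers 13 rose in the astrocyte line (median 1.05). No 2 libraries were identical. Whether pieces of the astrocyte line come from separate mice is not stated, so p-values measure the spread between pieces. In bulk RNA of this kind fewer cells of a type and less RNA per cell cannot be told apart.

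Basement membrane collagens were the most abundant class per length in bound RNA. They made up 64.0% of the summed collagen CPM per kb of exon in bound RNA of the astrocyte line, against 25.2% in unbound RNA, 54.8% against 21.0% in the knockout line and 54.8% against 20.6% in the heterozygous line. Fibril-forming genes held 7.30%, 9.31% and 9.58% in bound RNA of the astrocyte, knockout and heterozygous lines, against 21.9%, 22.2% and 21.5% in unbound RNA. FACIT genes held 16.4%, 19.6% and 18.7% in bound RNA, against 26.2%, 27.7% and 29.4% in unbound RNA. As a share of all counts, collagens took 0.113 to 0.175% of bound libraries in the astrocyte line, against 0.0175 to 0.0239% of unbound ones. They took, in the knockout line, 0.0422 to 0.0920% of bound libraries, against 0.00837 to 0.0146% of unbound ones, and in the heterozygous line 0.0386 to 0.0679%, against 0.00641 to 0.0125%.

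**Figure D1:**
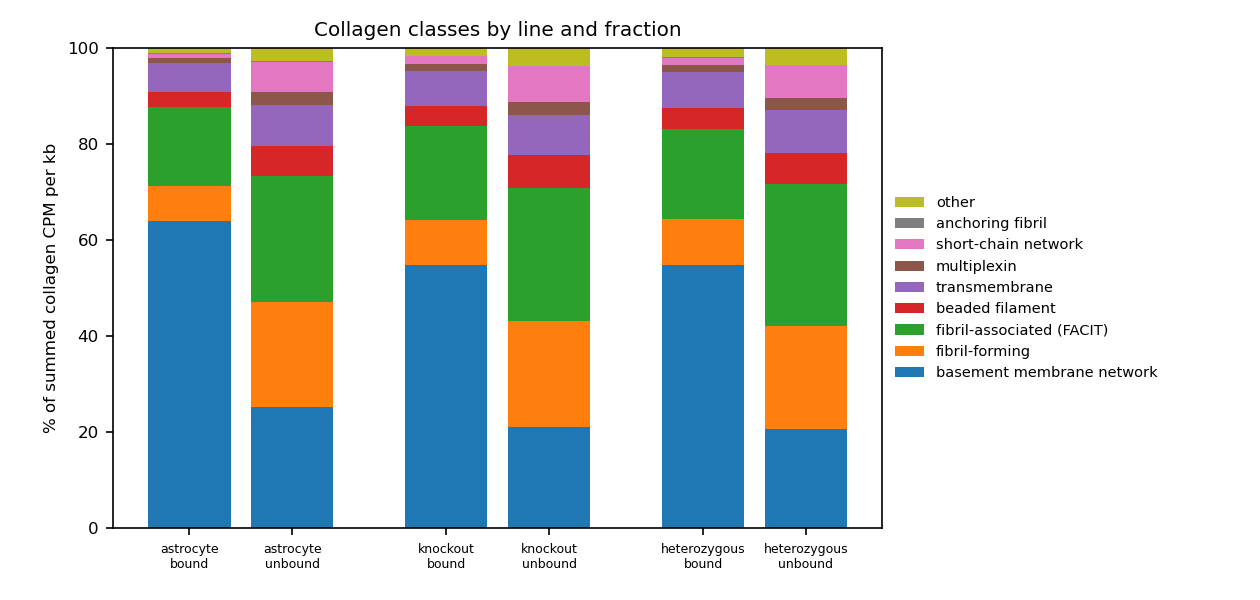
Share of each collagen class in the summed collagen CPM per kb (vertical axis, percent) in bound and unbound RNA of each line, from means over all pieces of a line and fraction. The basement membrane class takes 64.0%, 54.8% and 54.8% in bound RNA of the astrocyte, knockout and heterozygous lines and 25.2%, 21.0% and 20.6% in unbound RNA.

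The same 4 genes led bound RNA per kb in the same order in all 3 lines: Col4a2, Col4a1, Col19a1 and Col25a1. Col19a1 is a fibril-associated collagen made by interneurons in mouse brain, and Col25a1 a neuronal transmembrane collagen. In bound RNA of the astrocyte line they stood at 82.9, 26.7, 23.0 and 8.79 CPM per kb. In unbound RNA the first place per kb was Col4a2 in the astrocyte line (3.35 CPM per kb), followed by the cartilage collagen Col9a3 (2.97). Col9a3 came first in the knockout and heterozygous lines (1.72 and 1.76), ahead of Col4a2 in the knockout line (1.36). The spread between pieces of these means was not tested. Col9a3 shares 234 exonic bases with Tcfl5 on the opposite strand, so its count is uncertain to that extent. At the low end, 5 genes stayed under a mean of 1 CPM in every line and fraction: the beaded filament gene Col6a6, Col28a1, the hemidesmosome gene Col17a1, the transmembrane gene Col13a1 and Col10a1 of growth-plate cartilage (highest means 0.757, 0.736, 0.593, 0.480 and 0.208 CPM).

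Bound RNA held more of most collagens than unbound RNA, with the type IV gene Col4a2 furthest apart in every line. In the astrocyte line 36 of the 42 collagen genes tested rose and 0 fell in bound against unbound RNA (edgeR quasi-likelihood test, adjusted p under 0.05, background over all genes 31.5% higher and 27.6% lower). Of 42 genes in the knockout line, 31 rose and 0 fell (background 31.6% and 30.4%), and in the heterozygous line 31 of 42 rose and 1 fell (background 31.8% and 30.8%). Median log2 changes were 1.51, 1.27 and 1.17 in the astrocyte, knockout and heterozygous lines, against 0.03, -0.01 and -0.01 over all genes. The lowest bound piece exceeded the highest unbound piece for 25 of 42 genes in the astrocyte line (background 11.2%), 20 in the knockout line (12.3%) and 17 in the heterozygous line (15.3%). Genes that passed the filter only through bound RNA had to differ, so these counts describe the genes tested and not all 44. With the filter applied to each fraction alone, some genes passed in bound RNA only. These were Col7a1 in every line, Col13a1 in the knockout and heterozygous lines, and Col5a3 in the astrocyte and knockout lines. In the astrocyte line they also included Col17a1, Col8a2 and Col6a6.

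Col4a2 had 375, 561 and 755 CPM as lowest, median and highest of 10 bound pieces in the astrocyte line, against 19.5, 22.6 and 24.4 CPM in unbound pieces. Knockout pieces had 116, 163 and 250 CPM in bound pieces, against 6.71, 8.55 and 12.9 in unbound ones, and in the heterozygous line 130, 144 and 166 CPM, against 4.95, 8.24 and 11.9. Bound and unbound pieces of Col4a2 did not overlap in any line, and the ratio was above 0 on the log2 scale in 10 of 10, 10 of 10 and 8 of 8 pieces. The log2 change was 4.63 ± 0.10 (SE, edgeR, adjusted p = 2.9e-23) in the astrocyte line, 4.21 ± 0.13 (1.9e-17) in the knockout line and 4.17 ± 0.11 (1.4e-17) in the heterozygous line.

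Its partner Col4a1 had 164, 186 and 256 CPM in bound pieces of the astrocyte line, against 12.0, 16.8 and 20.05 in unbound pieces. It had 54.8, 88.0 and 128 CPM in bound knockout pieces, against 4.83, 8.18 and 12.3 in unbound ones, and 53.3, 77.1 and 102 CPM in bound heterozygous pieces, against 4.28, 7.26 and 10.2. Again no bound piece overlapped an unbound piece of the line. The log2 changes of Col4a1 were 3.59 ± 0.09, 3.52 ± 0.18 and 3.45 ± 0.12 (adjusted p = 6.2e-22, 6.0e-14 and 1.9e-15). Reads over the few bases where their exons overlap on opposite strands could belong to either gene, since the counting strand is not stated.

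Col4a3, Col4a4 and Col4a5, whose chains form the net of the kidney filter, and Col4a6, a chain of smooth muscle and skin basement membranes, rose in every line too. For Col4a3 the log2 changes were 3.96 ± 0.23, 3.82 ± 0.18 and 3.41 ± 0.22 in the astrocyte, knockout and heterozygous lines, at means of 33.7, 15.9 and 10.99 CPM in bound RNA. Col4a6 changed by 3.65 ± 0.15, 3.34 ± 0.27 and 2.88 ± 0.27, Col4a4 by 3.06 ± 0.10, 2.07 ± 0.09 and 2.03 ± 0.10, and Col4a5 by 2.55 ± 0.16, 2.42 ± 0.20 and 2.00 ± 0.21. All 6 type IV genes thus rose in each of the 3 lines, with class medians of 3.62, 3.43 and 3.14. Col4a3 shares exonic bases with a gene on the opposite strand, C430014B12Rik, so its count is uncertain to that extent.

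**Figure D2:**
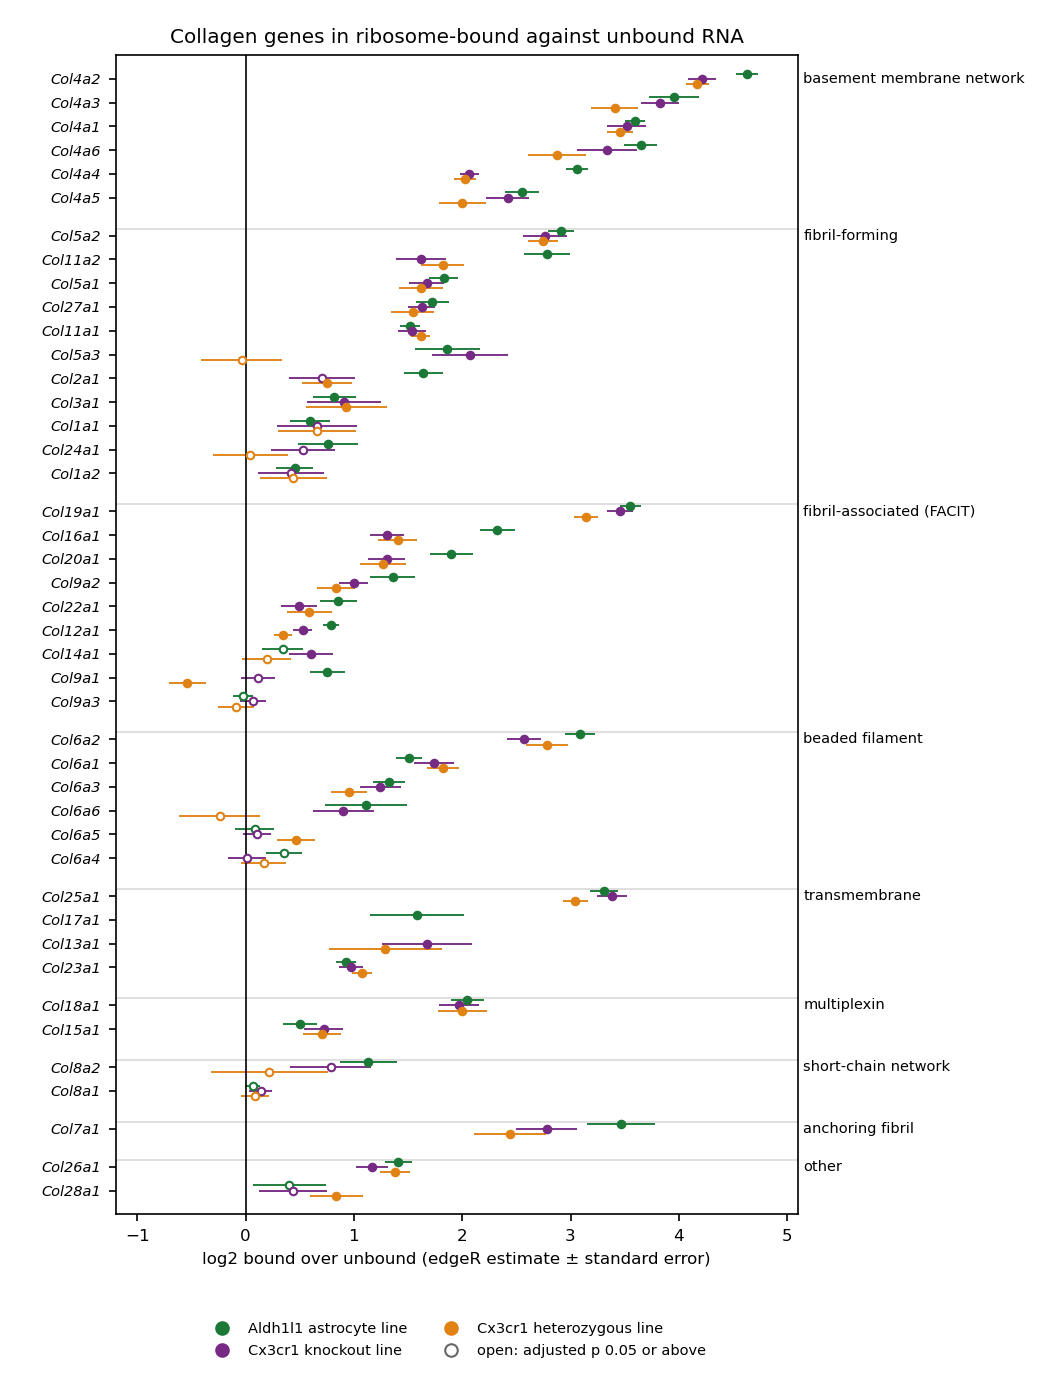
The log2 ratio of bound over unbound RNA (horizontal axis, edgeR estimate ± standard error) of each collagen gene tested, by class and line, with filled points where the adjusted p is under 0.05. Col4a2 lies furthest right at 4.63, 4.21 and 4.17 in the astrocyte, knockout and heterozygous lines, while Col8a1 and Col9a3 sit near 0 in all 3.

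Fibril-forming genes split by kind. Of 11, all 11 rose in the astrocyte line, 7 in the knockout line and 7 in the heterozygous line, with class medians of 1.64, 1.54 and 0.93. Col5a2, a type V chain that limits fibril width, was furthest apart at 2.91 ± 0.12, 2.76 ± 0.21 and 2.74 ± 0.14 in the astrocyte, knockout and heterozygous lines. Its partner Col5a1 changed by 1.83, 1.67 and 1.62, the cartilage-type chain Col11a1 by 1.52, 1.54 and 1.62, its partner Col11a2 by 2.78, 1.62 and 1.82, and the minor fibrillar gene Col27a1 by 1.73, 1.63 and 1.54, all called. The major fibril genes stood lower. Col3a1 changed by 0.82 ± 0.20, 0.91 ± 0.34 and 0.93 ± 0.37 (adjusted p = 0.00093, 0.025 and 0.036). Col1a1 and Col1a2, the 2 chains of type I collagen, were called in the astrocyte line (0.59 ± 0.18 and 0.45 ± 0.17). In the knockout and heterozygous lines their values of 0.42 to 0.66 carried SEs of 0.31 to 0.37 and did not pass. This fit did not pair the 2 fractions of a piece. Within pieces the log2 ratio of Col1a1 was above 0 in 10 of 10 knockout and 8 of 8 heterozygous pieces (means 0.73 and 0.65, SD 0.23 and 0.14). That of Col1a2 was above 0 in 9 of 10 and 8 of 8 (0.39 and 0.41, SD 0.25 and 0.18), and that of Col3a1 in 10 of 10 and 8 of 8. The calls of Col3a1 in the heterozygous line and of Col1a2 in the astrocyte line did not hold with DESeq2 (adjusted p = 0.11 and 0.055). Leaving out 14L, 15L, 17L, 17R, 21L or 21R ended the first (adjusted p 0.056 to 0.079), leaving out knockout piece 19R that of Col3a1 in its line (0.051), and leaving out deprived piece 3 that of Col1a2 (0.073). The cartilage gene Col2a1 was called in the astrocyte (1.64) and heterozygous lines (0.75) and had 0.71 ± 0.31 in the knockout line, where it did not pass. Col24a1 was called in the astrocyte line (0.76), where the call ended without control piece 1 or 4 (adjusted p = 0.082 and 0.058). Col5a3 was called in the astrocyte and knockout lines (1.86 and 2.07). There it passed the filter on low counts in bound RNA alone, so its direction was partly set by the filter.

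Among the FACIT genes Col19a1 stood apart. It had 110, 151 and 238 CPM as lowest, median and highest bound piece of the astrocyte line, against 10.6, 13.3 and 16.7 CPM in unbound pieces. In knockout pieces it had 46.3, 81.6 and 96.8 CPM in bound RNA, against 5.44, 7.01 and 7.75 in unbound RNA, and in heterozygous pieces 51.4, 56.7 and 72.8, against 4.59, 6.70 and 10.3. Bound and unbound pieces of Col19a1 did not overlap, and the log2 changes were 3.55 ± 0.09, 3.46 ± 0.12 and 3.14 ± 0.11 (adjusted p = 9.1e-22, 9.1e-17 and 3.4e-15). The fibril-surface genes Col16a1 (2.33, 1.31 and 1.41), Col20a1 (1.90, 1.30 and 1.27), Col9a2 (1.36, 1.00 and 0.84), Col22a1 of tissue junctions (0.86, 0.49 and 0.59) and Col12a1 (0.79, 0.53 and 0.35) also rose in all 3 lines. The call of Col22a1 ended without piece 21L (adjusted p = 0.078) or knockout piece 12R (0.051). Col14a1 was called only in the knockout line (0.60 ± 0.20) and had 0.34 ± 0.19 and 0.19 ± 0.22 in the astrocyte and heterozygous lines, a difference between lines that was not called in the tests below. Col9a3 was not called in any line (-0.03, 0.07 and -0.09, SE 0.09 to 0.17).

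Col9a1, a chain of the type IX collagen that coats cartilage fibrils, was the 1 collagen that fell in bound RNA. It had 0.454, 0.904 and 0.947 CPM as lowest, median and highest bound piece of the heterozygous line, against 1.01, 1.14 and 1.68 CPM in unbound pieces, with no overlap. In the astrocyte line it had 1.88, 3.34 and 4.11 CPM in bound pieces, against 1.04, 1.77 and 2.57 in unbound ones, and in the knockout line 0.898, 1.36 and 2.202, against 0.958, 1.33 and 1.58. The log2 change of Col9a1 was -0.54 ± 0.17 in the heterozygous line (adjusted p = 0.0097), 0.76 ± 0.16 in the astrocyte line (0.00025) and 0.11 ± 0.16 in the knockout line (0.54). These values of Col9a1 rest on 19 to 46 counts in each bound library of the heterozygous line.

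Of the beaded filament genes, 4 of 6 rose in each line. Col6a2 led at 3.09 ± 0.14, 2.57 ± 0.16 and 2.78 ± 0.19 in the astrocyte, knockout and heterozygous lines. Its partner chains in type VI collagen followed, Col6a1 at 1.51, 1.74 and 1.83 and Col6a3 at 1.33, 1.25 and 0.96. The fourth was Col6a6 in the astrocyte and knockout lines (1.11 and 0.90, the first lost without deprived piece 3, adjusted p = 0.068) and Col6a5 in the heterozygous line (0.47 ± 0.17). That call of Col6a5 ended without 14L, 15L, 17R or 21L (0.097, 0.058, 0.059 and 0.085). In the astrocyte line Col6a6 passed the filter on low counts in bound RNA alone, so its direction there was partly set by the filter. Col6a4, an alternative chain of type VI collagen, was not called in any line (0.35, 0.02 and 0.17).

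Of the transmembrane collagens, Col25a1 and Col23a1 lay higher in bound than in unbound RNA of every line. Col25a1 had 76.6, 109 and 167 CPM as lowest, median and highest bound piece of the astrocyte line, against 9.03, 11.5 and 13.6 CPM in unbound pieces, with no overlap. The log2 change of Col25a1 was 3.31 ± 0.13 there, 3.38 ± 0.14 in the knockout line and 3.05 ± 0.12 in the heterozygous line. Col23a1 changed by 0.93, 0.97 and 1.07. Col17a1 was called in the astrocyte line (1.58 ± 0.43) and Col13a1 in the knockout and heterozygous lines (1.68 ± 0.42 and 1.29 ± 0.52), the last lost without 14L, 14R, 15L, 17L or 21L (adjusted p 0.074 to 0.10). In these lines Col17a1 and Col13a1 passed the filter on low counts in bound RNA alone, so the direction of their change was partly set by the filter.

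Of the smaller classes, the multiplexins Col18a1, the source of endostatin (2.05, 1.97 and 2.00), and Col15a1 (0.50, 0.72 and 0.71) rose in each line. So did Col7a1, the skin anchoring fibril gene (3.47 ± 0.31, 2.78 ± 0.28 and 2.44 ± 0.33), at 3.07, 1.28 and 0.861 CPM in bound RNA. Col7a1 passed the filter on low counts in bound RNA alone in every line, so its direction was partly set by the filter. Col26a1, a secreted collagen of little known function, changed by 1.41, 1.17 and 1.38, and Col28a1 was called in the heterozygous line alone (0.84 ± 0.24). The short-chain gene Col8a2 was called in the astrocyte line (1.13 ± 0.26), where it too passed the filter in bound RNA alone. Its partner Col8a1, which forms sheets in vessel walls, had nearly the same level in both fractions: 12.7 CPM in bound against 12.1 in unbound RNA of the astrocyte line, 8.31 against 7.46 in the knockout line and 7.27 against 6.78 in the heterozygous line. Its log2 changes of 0.07 ± 0.07, 0.14 ± 0.11 and 0.09 ± 0.13 were not called. Col10a1 did not pass the filter on low counts in any line.

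Other matrix genes of the same structures were counted beside the collagens. Of 15 laminin, nidogen and perlecan genes, 13 rose and 1 fell in the astrocyte line, 13 rose in the knockout line and 14 in the heterozygous line (medians 0.86, 1.06 and 1.08). Hspg2, which encodes the proteoglycan perlecan, was among the highest at 3.24, 2.77 and 2.71. Of 22 collagen folding and modification genes, 12 rose and 4 fell in the astrocyte line, 6 and 4 in the knockout line, and 8 and 7 in the heterozygous line. P4hb, the shared subunit of prolyl hydroxylase, fell by 0.81 on the log2 scale in both microglial lines. Of 12 genes of propeptide cleavage and cross-linking 7 rose and 2 fell, 6 rose and 5 rose in the astrocyte, knockout and heterozygous lines, and of 11 collagen receptors 9, 7 and 7 rose. Lair1, an inhibitory collagen receptor of immune cells, changed by 1.29 ± 0.17 in the knockout and 1.41 ± 0.12 in the heterozygous line.

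Marker lists of several cell types were read in the same contrast. Of 17 fibroblast and meningeal markers tested in the knockout line 3 rose, in the heterozygous line 3 rose and 2 fell, and of 16 in the astrocyte line 3 rose and 5 fell (medians -0.05, -0.10 and -0.06). Endothelial markers had medians of 0.34, 0.40 and 0.39 in the astrocyte, knockout and heterozygous lines, with 3 of 13, 7 of 14 and 6 of 14 risen and 1, 2 and 2 fallen. Mural cell markers had medians of 0.08, -0.01 and 0.03, with 5, 3 and 5 of 12 risen and 1, 4 and 4 fallen. The neuronal gene Nefl, neurofilament light chain, changed by 4.21 ± 0.09, 4.41 ± 0.10 and 4.59 ± 0.11 in the 3 lines, as far as Col4a2, while of the 14 neuron markers 9, 6 and 6 fell. Summed over these 14, Nefl among them, the median was higher in bound than in unbound RNA of every line. It was 8241 against 6624 CPM in the astrocyte line, 9842 against 6454 in the knockout line and 9475 against 6710 in the heterozygous line. Of 14 astrocyte markers 13, 4 and 4 rose and 0, 7 and 8 fell in the astrocyte, knockout and heterozygous lines (medians 1.05, -0.43 and -0.38). The part of these cell types in the collagen ratios was not tested. No pulldown from mice without the tag was analysed here, so RNA on tagged ribosomes and RNA held back in other ways cannot be told apart.

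Bound over unbound ratios differed between the astrocyte and heterozygous lines for some collagens, with a share called higher near that of all genes. The ratio was higher in the astrocyte line than in the heterozygous line for 12 of 43 genes and lower for 0 (edgeR interaction, adjusted p under 0.05, background 24.7% higher and 17.1% lower), with a median difference of 0.34 log2 units against 0.14 over all genes (0.08 with DESeq2 size factors). Called with the smallest p was Col4a4, at 33.7 CPM in bound against 4.08 CPM in unbound RNA of the astrocyte line, and 12.1 against 2.95 CPM in the heterozygous line (difference 1.10 ± 0.15, adjusted p = 7.6e-08). Next came Col9a1 (1.37 ± 0.24), Col12a1 (0.52 ± 0.11), Col5a3 (1.98 ± 0.48) and Col16a1 (1.00 ± 0.25). Col5a3 rests on few counts: heterozygous pieces had 0.0938 to 0.316 CPM in bound and 0.0261 to 0.322 CPM in unbound RNA. Its log2 ratio was above 0 in 4 of 8 of those pieces (mean 0.11, SD 1.06). With each fraction of these lines filtered alone, Col5a3 and Col6a6 passed only in bound astrocyte RNA. The direction of their difference was thus partly set by the filter. Col4a2 (0.53 ± 0.15), Col11a2 (1.05 ± 0.30), Col2a1 (0.97 ± 0.29) and Col19a1 (0.49 ± 0.15) followed. Col4a6 (0.85 ± 0.32), Col6a6 (1.43 ± 0.56) and Col20a1 (0.71 ± 0.29) were nearest the threshold. Of these last 3, Col20a1 lost its call under DESeq2 (adjusted p = 0.065) and without astrocyte pieces control 1, 3, 4 or 5 or deprived 1 or 5, or without 14L, 14R, 17L, 17R or 21L (0.059 to 0.15). Col6a6 lost it with the piece as a block (0.058), without astrocyte pieces control 3 or 4 or deprived 1 or 3, or without 14L, 15L, 17L, 21L or 21R (0.054 to 0.12). Col4a6 lost it without astrocyte pieces control 3, control 5 or deprived 5, or without 14R (0.053 to 0.092). Col20a1 and Col6a6 also lost it without the filter on low counts and without the 5 pieces under 20 CPM of the choroid plexus gene Ttr in bound RNA. By class, 3 of 6 basement membrane genes, 5 of 9 FACIT genes, 3 of 11 fibril-forming genes and 1 of 6 beaded filament genes differed. Line and count table coincide, so the tagged cell and the table cannot be told apart.

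Between the microglial lines no collagen was called in the same test (0 of 43, and 0.0% of all genes). At an unadjusted p under 0.05 there were 3 (3.44% of all genes), Col5a3, Col9a1 and Col6a6, with knockout minus heterozygous differences of 2.11 ± 0.52, 0.66 ± 0.23 and 1.15 ± 0.46, and DESeq2 called 0. Col5a3, a type V chain, had 0.484 ± 0.194 CPM in bound knockout pieces, against 0.212 ± 0.079 CPM in bound heterozygous pieces (SD, n = 10 and 8), at 4 to 45 counts a library. In unbound RNA Col5a3 was near the floor, at 0 to 0.278 CPM in knockout and 0.0261 to 0.322 CPM in heterozygous pieces. The levels of collagens did not pass either: 0 of 43 genes differed in bound RNA (background 0.0561%, median 0.23 higher in the knockout line against 0.01 over all genes, 13 at an unadjusted p under 0.05 against 7.47% of all genes, 0 by DESeq2) and 0 of 41 in unbound RNA (background 0.0674%, median 0.17 against 0.00, 1 at an unadjusted p under 0.05 against 6.73% of all genes, 0 by DESeq2).

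Whisker deprivation was not followed by a called collagen change in the astrocyte line. In its bound RNA 0 of 41 genes were called in deprived against control pieces (background 0.0%, 2 at an unadjusted p under 0.05 against 6.03% of all genes, 0 by DESeq2, median 0.10), and in unbound RNA 0 of 36 (background 0.0%, 3 at an unadjusted p under 0.05 against 6.19% of all genes, 0 by DESeq2, median -0.08). Col4a2 had 488, 435, 670, 541 and 755 CPM in deprived bound pieces 1 to 5 of this line, against 436, 375, 616, 590 and 581 CPM in control pieces 1 to 5, and the groups overlapped (0.14 log2 units). The smallest p in bound RNA belonged to Col19a1 (0.35 ± 0.13, adjusted p = 0.72) and Col4a6 (0.44 ± 0.19, adjusted p = 0.80).

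In the heterozygous line 3 of 40 collagens rose in bound RNA of deprived pieces and 0 fell (background 5.52% higher and 4.76% lower): Col26a1, Col4a5 and Col4a3. At an unadjusted p under 0.05 there were 13 of 40, against 26.2% of all genes, and the median was 0.30 log2 units against 0.01. The numbers called higher and at the unadjusted p were near the shares of all genes. They are thus no result about collagens as a set, and the values below describe single genes. Col26a1 had 9.84, 13.3, 16.2 and 9.40 CPM in deprived pieces 17R, 14L, 15L and 17L, against 6.44, 7.97, 5.83 and 7.98 CPM in control pieces 21R, 14R, 15R and 21L. Every deprived piece lay above every control piece for Col26a1, and the log2 change was 0.79 ± 0.17 (adjusted p = 0.012). Col4a5 had 7.37, 12.0, 12.0 and 11.4 CPM in the same deprived pieces, against 5.11, 9.64, 3.27 and 3.71 CPM in the control pieces, and the groups overlapped through 17R and 14R (0.98 ± 0.28, adjusted p = 0.037). Col4a3 had 14.5, 14.3, 12.4 and 16.6 CPM in deprived pieces, against 6.28, 14.2, 5.07 and 4.56 CPM in control pieces. Control piece 14R lay among the deprived pieces for Col4a3, and the other control pieces below them (0.95 ± 0.28, adjusted p = 0.043).

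These 3 calls depended on few pieces. With the groups formed by side letter 0 of 40 collagens were called, with the replicate number as a block (which joins pieces of mouse 17 with pieces of mouse 21) 6, and without 17R and 21L 2. Leaving out 14L, 15L, 17L or 21R left 1 called, and leaving out 14R gave 7. DESeq2 also called 3, of which Col26a1 alone is among those above, with Col25a1 and Col4a1 beside it. Col4a3 was in addition not called without 15R, 17R or 21L (adjusted p = 0.093, 0.081 and 0.0999), nor Col4a5 without 15R or 21L (0.077 and 0.095). Without the filter on low counts 13 were called. Of the other collagens, Col25a1 (0.43 ± 0.15, adjusted p = 0.085) and the fibril gene Col3a1 (1.16 ± 0.41, adjusted p = 0.090) came nearest.

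Markers of choroid plexus, a tissue next to the cortex at the ventricle, and of ependyma, the lining of the ventricle, differed between the same pieces. Summed over 8 markers they had 336, 472 and 548 CPM as lowest, median and highest of the deprived bound pieces, against 9.76, 40.9 and 568.006 CPM in control pieces, and 8 of 8 lay above 0 in deprived against control pieces (median 0.97, 0 called). Ttr, the transthyretin gene that defines choroid plexus, had 303 to 509 CPM in deprived bound pieces. The control pieces had 529 CPM in 14R, 61.0 in 21R, 0.243 in 21L and 0.167 in 15R. Pieces 21L and 15R, with next to no Ttr, were also the lowest for Col4a3 in bound RNA, and for Col4a5. In the knockout line piece 7L had 0.657 CPM of Ttr and the lowest Col4a3 (6.45 CPM) and Col4a5 (3.34 CPM) of 10 bound pieces, and piece 12L, with 80.4 CPM of Ttr, the next lowest Col4a3 (6.71). In the astrocyte line control piece 4 and deprived piece 3, with 7.22 and 13.8 CPM of Ttr, had the lowest Col4a3 (14.0 and 11.8 CPM) and Col4a5 (10.9 and 19.7 CPM). For 2 of 44 collagens, Col4a3 and Col4a5, these 5 pieces of 28, those under 20 CPM of Ttr in both fractions, were the lowest bound pieces in all 3 lines, and in unbound RNA there were 0. The share of all genes with this pattern was not counted, and both genes are among the 3 called above. The limit that picks these pieces was set after seeing the data. Without these pieces, an alternative chosen after seeing the data, 0 collagens were called in the heterozygous line. The log2 changes were then 0.50 for Col4a3, 0.54 for Col4a5 and 0.76 for Col26a1 (edgeR adjusted p = 0.26, 0.24 and 0.066). In that line the pieces left out, 15R and 21L, were both control pieces and the lowest for Col4a3 and Col4a5. Leaving them out had to shrink the changes of these genes, and only control pieces 14R and 21R remained. This fit therefore cannot test the part of choroid plexus or ependyma in the result, which was not tested.

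**Figure D3:**
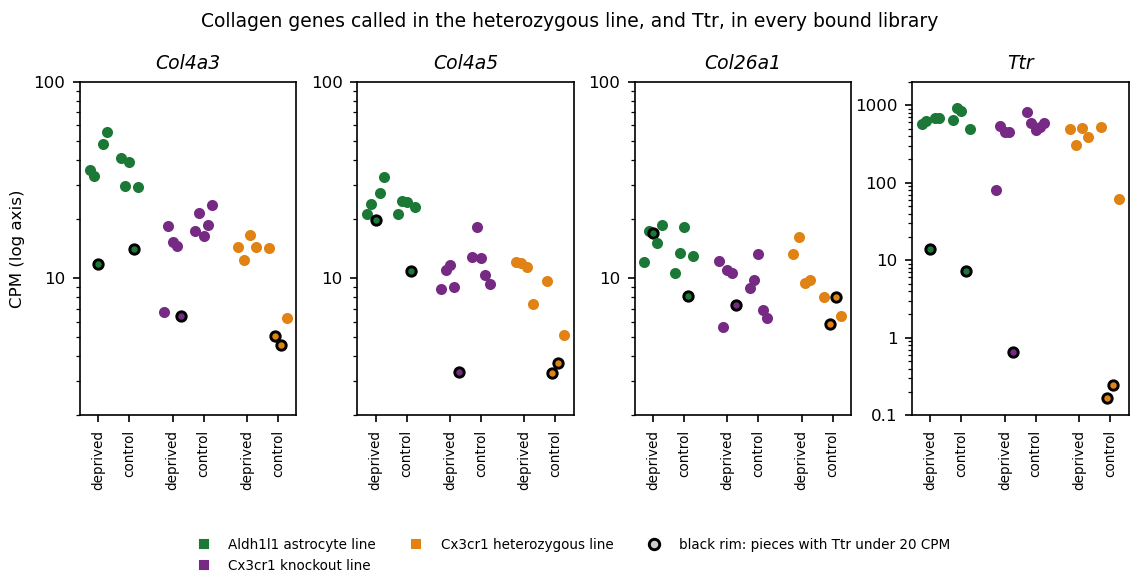
CPM (log axis) of Col4a3, Col4a5, Col26a1 and the choroid plexus gene Ttr in every bound piece, deprived left of control in each line, with black rims on the 5 pieces under 20 CPM of Ttr. The rimmed pieces are together the lowest of their line for Col4a3 and Col4a5, while for Col26a1 at least 1 other piece of each line lies below a rimmed one, and Ttr lies at 0.167 and 0.243 CPM in 2 of the 4 heterozygous control pieces.

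Fibroblast and meningeal markers lay higher in deprived than in control bound pieces of the heterozygous line as well. All 17 were above 0 with a median of 0.89 and 3 called (Aldh1a2, Fmod and Dcn), and their sum ran from 142 to 194 CPM in deprived pieces, against 89.7 to 153 CPM in control pieces. Microglia markers had 9 of 15 and astrocyte markers 5 of 14 called higher there. Of 15 laminin, nidogen and perlecan genes 3 rose (Lamb1, Lamb2 and Nid1). Over all genes 5.52% were called higher in this contrast. Members of these lists called lower, and endothelial and mural cell markers, are not given for it. The part of these cell types in the collagen values was not tested. In unbound RNA of this line 0 of 38 collagens were called (background 3.75%), with 13 at an unadjusted p under 0.05 against 17.8% of all genes, 1 by DESeq2 (Col18a1) and a median of 0.31.

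No collagen was called after deprivation in the knockout line. In bound RNA 0 of 42 passed (background 0.00546%, 7 at an unadjusted p under 0.05 against 3.77% of all genes, 0 by DESeq2, median -0.14) and in unbound RNA 0 of 39 (background 0.038%, 4 at an unadjusted p under 0.05 against 4.74% of all genes, 0 by DESeq2, median -0.09). For Col4a3 the values were 6.71, 18.4, 15.4, 14.5 and 6.45 CPM in deprived bound pieces 12L, 18L, 19L, 22L and 7L, against 17.4, 21.5, 16.4, 18.7 and 23.6 CPM in the control pieces of the same mice. The deprived piece was the lower in 5 of 5 mice for Col4a3 (-0.68, not called). All 8 choroid plexus and ependyma markers lay below 0 in this contrast (median -0.67, 0 called). Their sums were 9.79 to 577 CPM in deprived bound pieces, against 521 to 862 CPM in control pieces.

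The deprivation change itself was compared between genotypes. In bound RNA 0 of 43 collagens differed (background 0.51%, 12 at an unadjusted p under 0.05 against 17.2% of all genes, 2 by DESeq2, median knockout minus heterozygous difference -0.45 against -0.03 over all genes). The smallest p belonged to Col4a3 (-1.63 ± 0.43, adjusted p = 0.073). In unbound RNA 1 of 41 differed (background 0.508% higher and 1.28% lower), too few to be a result about collagens as a set. This was the neuronal gene Col25a1. It had 3.85, 3.21, 4.64, 4.72 and 3.05 CPM in deprived unbound knockout pieces 12L, 18L, 19L, 22L and 7L, against 4.63, 6.14, 5.17, 6.06 and 5.77 CPM in control pieces of the same mice. In the heterozygous line Col25a1 had 4.54, 5.30, 5.30 and 6.84 CPM in deprived unbound pieces 17R, 14L, 15L and 17L, against 4.37, 4.51, 3.88 and 5.41 CPM in control pieces 21R, 14R, 15R and 21L. The deprived piece was the lower in 5 of 5 knockout mice and the higher in both heterozygous mice with a piece of each kind, 14 and 15. In both lines the groups overlapped, and the difference was -0.84 ± 0.21 (adjusted p = 0.048). It was not called with the mouse as a block, by side letter, without the pieces low in Ttr (0 of 41 each), or without any single piece other than 14R, 17R, 19L and 22L.

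Collagens varied more between pieces of a group than most genes. The median within-group SD of log2 CPM was 0.38 in bound and 0.31 in unbound RNA of the astrocyte line, against 0.22 and 0.15 over all genes tested. It was 0.44 and 0.34 in the knockout line (0.23 and 0.18 over all genes) and 0.34 and 0.38 in the heterozygous line (0.18 and 0.17). Above the median of all genes lay 39 of 41 and 32 of 36 collagens in bound and unbound RNA of the astrocyte line, 40 of 42 and 37 of 39 in the knockout line, and 37 of 40 and 38 of 38 in the heterozygous line. Fibril-forming genes had class medians of 0.45, 0.61 and 0.41 in bound RNA of the astrocyte, knockout and heterozygous lines, and basement membrane genes 0.35, 0.48 and 0.38. Among the highest SDs of the heterozygous line were those of Col3a1 in unbound RNA (1.62) and of Col8a2 and Col1a1 in bound RNA (1.41 and 1.26). Col4a2 had 0.10 in bound RNA of that line, the lowest of its 40 collagens tested. Col8a2 lay at 0 to 1.32 CPM in the bound heterozygous pieces, and its SD there was 1.93 with a prior count of 0.5. The collagens were not matched to all genes tested by level, on which the SD depends.

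**Figure D4:**
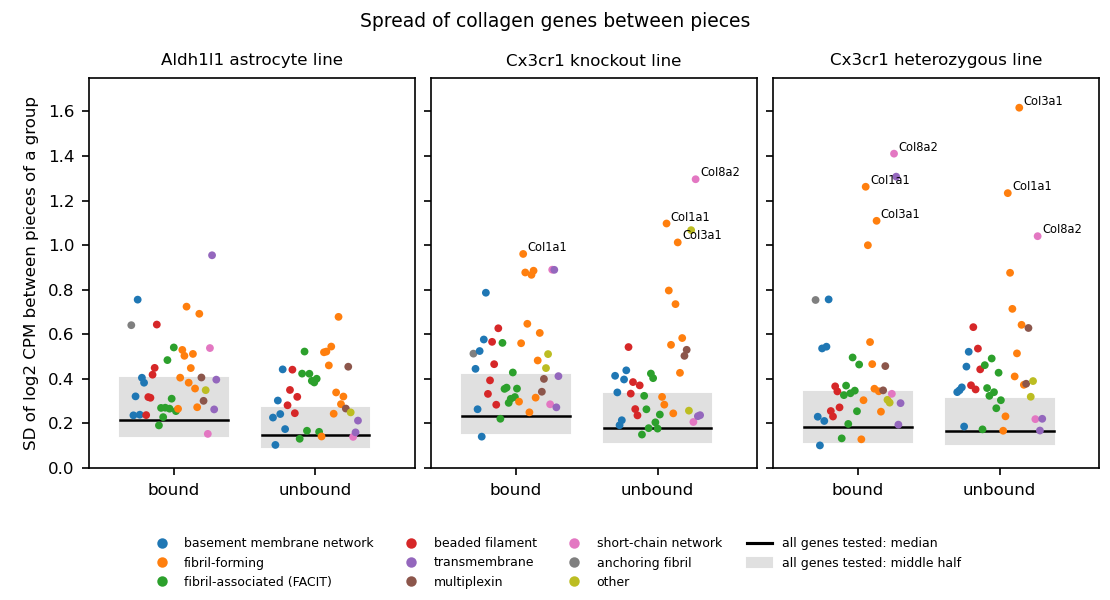
Within-group SD of log2 CPM between pieces (vertical axis) of each collagen gene tested, coloured by class, in bound and unbound RNA of each line, with the median of all genes tested as a line and the range between their quartiles in grey. Col3a1 reaches 1.62 in unbound and Col8a2 1.41 in bound RNA of the heterozygous line, where the medians of all genes are 0.17 and 0.18. Col8a2 lies at 0 to 1.32 CPM in those bound pieces.

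The extremes of Col1a1 and Col1a2 fell on the same pieces in both fractions of every line, and those of Col3a1 did so in the heterozygous line only. Among knockout pieces Col3a1 was lowest in 7R in both fractions, but highest in 12L in bound and 18R in unbound RNA. In bound and unbound RNA of the astrocyte line its lowest pieces were control 5 and deprived 4, and its highest deprived 5 and deprived 2. Col1a1 had 0.693 CPM in bound and 0.443 CPM in unbound RNA of heterozygous control piece 15R, against 7.78 to 9.24 CPM in the other bound and 4.16 to 5.70 CPM in the other unbound control pieces. Piece 15R was the lowest of 8 in both fractions for Col1a1, Col1a2 and Col3a1, and piece 15L, from the same mouse, the highest. Col3a1 had 1.17 CPM in bound and 0.183 CPM in unbound RNA of 15R, against 23.8 and 12.7 CPM in 15L. The fibroblast gene Dcn, decorin, had 0.359 and 0.0782 CPM in 15R, against medians of 5.13 and 7.06 CPM over the line. Among knockout pieces Col1a1 was highest in 18R (23.1 CPM in bound and 15.6 in unbound RNA) and lowest in 7R (2.55 and 1.46 CPM), and Dcn had 13.8 CPM in bound RNA of 18R, the highest of the line, and was lowest in 7R. In the astrocyte line deprived piece 5 was highest (28.2 and 21.3 CPM of Col1a1) and deprived piece 4 lowest (8.63 and 5.95 CPM), with 6.37 and 1.92 CPM of Dcn in bound RNA, where the median of the line was 6.91 and the highest 9.67 CPM. Piece 5 thus lay below the median for Dcn, and piece 4 was the lowest. The part of meningeal tissue in this spread was not tested.

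**Figure D5:**
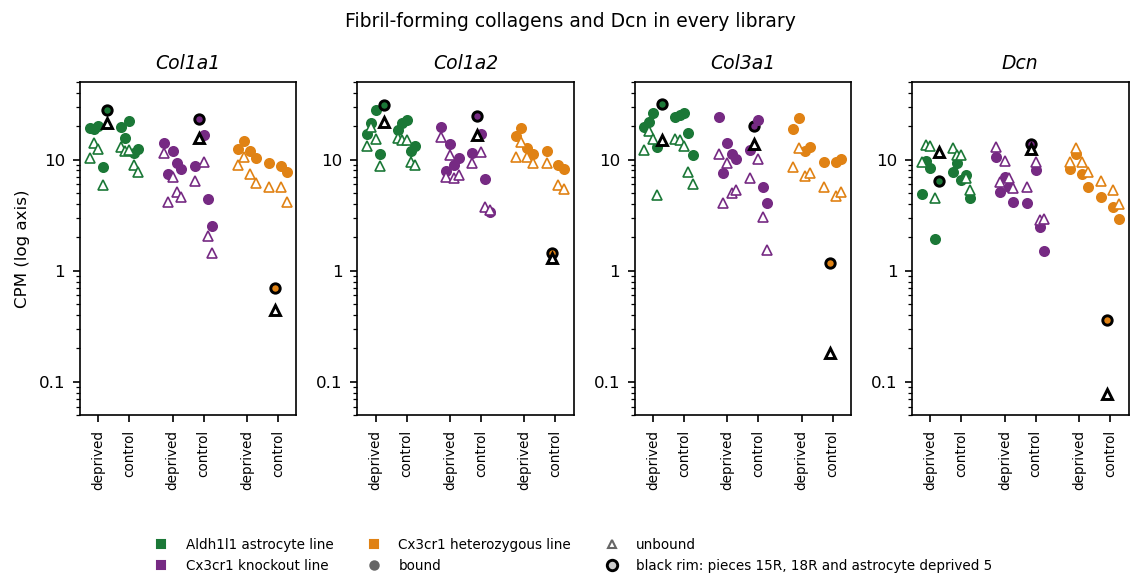
CPM (log axis) of the fibril genes Col1a1, Col1a2 and Col3a1 and of the fibroblast gene Dcn in every library, deprived left of control in each line, filled for bound and open for unbound RNA, with black rims on pieces 15R and 18R and on astrocyte deprived piece 5. Piece 15R lies lowest for all 4 genes, at 0.693 CPM of Col1a1 in bound RNA.

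Collagen transcripts share features that the choice by name did not use. Their longest transcripts had a median of 6084 bases and 55.1% GC, against 3512 bases and 49.6% GC over the protein-coding genes tested in the astrocyte line. Across the 42 collagens tested, the bound over unbound ratio and GC content had a Spearman rho of 0.19, 0.13 and 0.03 in the astrocyte, knockout and heterozygous lines, against 0.38, 0.17 and 0.20 over protein-coding genes. With transcript length rho was 0.20, 0.17 and 0.15 for collagens, against 0.06, 0.43 and 0.40. These are descriptions across genes that share libraries.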

How the data were processed

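Per the submitters' processing notes, the authors name build GRCm38, featureCounts 2.0.0, HISAT2 2.2.0, Trim Galore 0.6.4, FastQC 0.11.9 and cutadapt 2.9, and deposited raw counts per gene in 1 table for each line; the counting strand is not given in the sources used here. Counts were fitted with the edgeR 4.0.16 quasi-likelihood test (R 4.3.3; TMM, filterByExpr, two-sided, Benjamini-Hochberg over all genes tested, threshold 0.05), and with DESeq2 1.42.0 as an alternative. Each line, fraction and comparison was fitted as the labels group it, and comparisons between lines as an interaction or across both tables. CPM use TMM library sizes, log2 CPM a prior count of 2, and CPM per kb the union exon length of GENCODE vM21. The fit was tested on simulated data.

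Members, classes and lists were chosen with earlier results of these data known. Every collagen gene was accounted for, and those called in any comparison or with a mean of at least 1 CPM were to be named. From the other lists at most 4 called genes per comparison were to be named by smallest p, and markers beside a result were named after their values were seen. Bound and unbound RNA of a piece deviated together (correlation over 0.1 in 10 of 10, 10 of 10 and 8 of 8 pieces of the astrocyte, knockout and heterozygous lines). Deprived and control pieces of 1 knockout mouse come from the same animal by their number, and did so in 5 of 5 bound pairs and 4 of 5 unbound pairs.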

Additional observations from a re-analysis of the deposited data

Results flagged for a closer look

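Among the 11 genes with values by piece, 5 of 132 groups had a piece far from the others, where chance gives about 1 in 20. These were Col3a1 in bound control piece 15R of the heterozygous line (1.17 CPM, lowest of 4), Col4a5 in bound control piece 4 of the astrocyte line (10.9 CPM, lowest of 5) and Col4a5 in bound deprived piece 17R of the heterozygous line (7.37 CPM, lowest of 4). The other 2 were Col19a1 in unbound control piece 4 of the astrocyte line (16.7 CPM, highest of 5) and Col8a1 in unbound control piece 12R of the knockout line (10.98 CPM, highest of 5).

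The bound over unbound ratio differed between the astrocyte and heterozygous lines for 12 of 43 collagens in the edgeR interaction test (higher in the astrocyte line, as were 24.7% of all genes), with astrocyte minus heterozygous differences of 1.10 for Col4a4, 1.37 for Col9a1, 0.52 for Col12a1, 1.98 for Col5a3, 1.00 for Col16a1 and 0.53 for Col4a2. For Col11a2 the difference was 1.05, for Col2a1 0.97, for Col19a1 0.49, for Col4a6 0.85, for Col6a6 1.43 and for Col20a1 0.71, and these last 3 lost their calls under some alternatives. The deprivation change of Col25a1 in unbound RNA differed between knockout and heterozygous lines by -0.84 log2 units. Causes were not tested.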

How the results depend on the processing

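Of the counts and medians over collagens, 254 values under alternatives kept their reading and 36 moved, and no gene reversed its direction after a call; of values of single genes 3283 kept their side of the threshold, 66 gained and 98 lost a call. Without the filter on low counts the collagens called after deprivation were 1 in bound astrocyte RNA, 13 in bound and 5 in unbound heterozygous RNA, and 5 for the bound difference between genotypes. DESeq2 called 1 in unbound heterozygous RNA, and 2 each for the bound and unbound differences. With the replicate block 6 were called in bound heterozygous RNA and, with the mouse as a block, 0 for the unbound difference. By side letter, and without the pieces low in Ttr (chosen after seeing the data), 0 were called in bound heterozygous RNA and 0 for the unbound difference. Leaving out 1 piece gave 1 to 7 in bound and 0 to 3 in unbound heterozygous RNA, 0 to 6 for the bound and 0 to 2 for the unbound difference, with the highest count in each without 14R. Bound against unbound RNA kept 34 to 37 called in the astrocyte, 30 to 33 in the knockout and 28 to 34 in the heterozygous line, and 9 to 13 in the astrocyte minus heterozygous difference. The causes were not tested. In the heterozygous line the block pairs 2 pieces each of mice 14 and 15 but joins mouse 17 with mouse 21, and 2 of 4 bound pairs correlated over 0.1; astrocyte pieces share only a number (1 of 5). Genes under 1 CPM rest on few counts, and the shallower astrocyte libraries limit them most.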
